A study of Mus musculus with 16 samples.

Results

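The 10 genes described here carry out antigen presentation by the major histocompatibility complex (MHC), and they were chosen by name out of the 49066 genes that could be named in brown adipose tissue (BAT). Of these, 6 belong to the class II pathway (*H2-Aa*, *H2-Ab1*, *H2-Eb1*, *H2-DMa*, *Cd74* and *Ciita*) and 4 to the class I pathway (*H2-K1*, *H2-D1*, *B2m* and *Tap1*). Class I molecules sit on nearly every nucleated cell and display peptides from the cell's own proteins to CD8+ T cells, whereas class II molecules are mostly made by macrophages, dendritic cells and B cells and display peptides from engulfed material to CD4+ T cells. Interferon gamma induces both pathways, class II through the transactivator CIITA. In adipose tissue, class II genes are best known from macrophages and other resident immune cells, and adipocytes can also make them under inflammatory signals.

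BAT RNA was sequenced from 4 male wild-type (WT), 4 male GDF15 BKO (KO), 4 female WT and 4 female KO mice, all on a C57BL6/J background, fed a high-fat diet (HFD) for 12 weeks and collected at 18 weeks of age. KO mice carried 2 floxed *Gdf15* alleles and a *Ucp1*-Cre transgene, so the gene for this stress-induced cytokine was deleted only in thermogenic adipocytes, and its other sources in the tissue were left intact. WT mice carried the same floxed alleles without Cre, so the transgene itself has no control of its own among these groups. Comparisons were made within each sex, between the sexes for the size of the KO difference, and between the WT groups.

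Values are TPM, the abundance of a transcript corrected for its length and given as a share of a fixed library sum, and were summed over the transcripts of a gene. The number of reads behind a TPM is not known, so precision is given by the spread between mice. *Gdf15* was listed at 0.368 to 3.81 TPM in male WT and 0.0801 to 0.272 TPM in male KO mice, without overlap, and at 0.0622 to 0.311 TPM in female WT and 0 to 0.0794 TPM in female KO mice, with overlap. All 9 brown adipocyte markers examined exceeded 1 TPM in every library, with *Ucp1*, the uncoupling protein of brown fat, at 2353 to 4423 TPM. Mitochondrial transcripts took 34.5 to 59.8% of the TPM, and skeletal muscle transcripts varied widely within every group, with muscle actin *Acta1* at 0.207 to 1237 TPM. Male WT 1 and female WT 2 had a mitochondrial share above 55%, and in female WT 4, 17.7% of the TPM fell on identifiers without a gene name, against at most 0.480% elsewhere. Class II medians and some class I values are also given without these 3 libraries, and the other results are not.

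The promoters of 5 members are shown because they carry the elements by which the 2 pathways are known to be controlled together. The class II genes share an X box, bound by the RFX complex and next to a cyclic AMP response element (CRE), and a Y box bound by NF-Y, on which CIITA assembles, while class I promoters add sites for NF-kB and interferon regulatory factors (IRF). Each line holds the 250 bases upstream of the annotated start, 5′ to 3′ on the gene's strand, from RefSeq on GRCm38.p6, with matches to the motifs below in capitals.
*H2-Aa*, chr17:34287824-34288073, minus strand: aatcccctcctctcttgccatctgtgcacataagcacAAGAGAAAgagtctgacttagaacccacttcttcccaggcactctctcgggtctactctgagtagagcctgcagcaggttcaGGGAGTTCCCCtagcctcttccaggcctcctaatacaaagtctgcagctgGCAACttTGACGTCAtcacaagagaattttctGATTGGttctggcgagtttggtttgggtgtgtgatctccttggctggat
*H2-Eb1*, chr17:34305617-34305866, plus strand: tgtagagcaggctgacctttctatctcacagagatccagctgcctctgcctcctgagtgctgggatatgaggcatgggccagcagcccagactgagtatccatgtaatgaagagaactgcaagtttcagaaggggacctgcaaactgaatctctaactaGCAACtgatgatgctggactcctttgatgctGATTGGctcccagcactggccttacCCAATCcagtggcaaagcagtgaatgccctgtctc
*H2-K1*, chr17:34000334-34000583, minus strand: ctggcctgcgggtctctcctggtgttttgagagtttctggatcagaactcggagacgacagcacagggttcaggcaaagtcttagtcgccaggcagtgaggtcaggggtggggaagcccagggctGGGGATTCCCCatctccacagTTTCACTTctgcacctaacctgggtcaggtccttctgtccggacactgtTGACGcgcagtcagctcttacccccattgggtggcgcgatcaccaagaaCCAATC
*H2-D1*, chr17:35262844-35263093, plus strand: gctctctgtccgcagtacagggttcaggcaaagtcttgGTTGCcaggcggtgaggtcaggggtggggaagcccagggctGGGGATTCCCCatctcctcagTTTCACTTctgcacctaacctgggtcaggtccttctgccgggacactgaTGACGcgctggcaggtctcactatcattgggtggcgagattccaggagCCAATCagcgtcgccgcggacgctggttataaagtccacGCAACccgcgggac
*B2m*, chr2:122147437-122147686, plus strand: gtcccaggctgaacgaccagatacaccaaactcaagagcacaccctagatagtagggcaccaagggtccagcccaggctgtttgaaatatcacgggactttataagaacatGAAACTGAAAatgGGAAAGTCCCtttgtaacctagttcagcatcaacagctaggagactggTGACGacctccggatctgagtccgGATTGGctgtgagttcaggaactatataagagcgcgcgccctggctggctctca

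Motifs were searched on both strands in the 9 windows that RefSeq gave for 7 of the members, including 2 alternative starts each for *H2-K1* and *H2-DMa*. The 2 *H2-K1* windows overlap over most of their length, so a site they share counts for both. No window was used for *H2-Ab1*, *Cd74* and *Ciita*. The Y box letters GATTGG occurred in 7 of the 9 member windows and in 14.6% of all 32851 windows of this length. In *H2-Aa* they lay at -49 to -44, downstream of the X1 box letters GCAAC at -81 to -77 and of an overlapping pair of the CRE letters TGACG, 1 on each strand. *H2-Eb1* held GCAAC at -91 to -87 and GATTGG at -60 to -55, in the same order, with no TGACG in this window. GCAAC was found in 5 of 9 member windows and 29.9% of all, and TGACG in 6 of 9 and 17.8%.

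Among the class I promoters, those of *H2-K1* and *H2-D1* were 89.6% identical over 192 aligned columns. Both held an NF-kB match followed by an IRF match. NF-kB matches occurred in 5 of the 9 member windows, including that of the class II gene *H2-Aa*, and in 7.25% of all. The IRF letters AANNGAAA were present in 6 of 9 member windows and 21.3% of all. Only the *B2m* window, among the 9, held the longer interferon-stimulated element GAAANNGAAA, which 2.98% of all windows hold and which contains the IRF letters. These matches are descriptions of letters, and binding was not measured.

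In BAT the class I genes were the more abundant pathway. Over all 16 libraries *B2m*, the invariant light chain of class I, averaged 398 TPM and ranked 200 among all genes. It was followed by the classical heavy chains *H2-K1* at 287 TPM and *H2-D1* at 181 TPM, and the ranges of these neighbours overlapped. *Cd74*, the invariant chain that guards the class II groove until the peptide is loaded, averaged 85.0 TPM. The class II chains came next, with *H2-Aa* at 51.8, *H2-Eb1* at 50.1 and *H2-Ab1* at 34.9 TPM, and their ranges overlapped with each other and with that of *Cd74*. *Tap1*, a subunit of the pump that brings peptides to class I, averaged 7.30 TPM, and *H2-DMa*, a chain of the peptide exchange factor of class II, 4.13 TPM. *Ciita* averaged 0.535 TPM and stayed under 1 TPM in every library. The other class II alpha locus of this strain, *H2-Ea-ps*, is a pseudogene, and it was listed at 0 TPM throughout.

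The TPM of a gene were not always assigned mainly to a transcript annotated as coding for the protein. The shares below are those that the authors' quantification assigned among the transcripts of a gene. Without the reads this split could not be checked, so the shares do not establish which transcripts were present. Transcript types are those of the GENCODE release used for matching, and the annotation used in the quantification is not named in the sources used here. For *H2-Eb1*, the transcript H2-Eb1-205, annotated as subject to nonsense-mediated decay, held 69.6 to 71.7% of the gene's TPM as group means, the retained-intron H2-Eb1-204 10.4 to 15.02% and the coding H2-Eb1-201 6.11 to 10.9%. For *H2-K1*, the short retained-intron transcript H2-K1-215 held 47.1 to 49.2% and the coding transcript H2-K1-201 30.3 to 34.5%. *H2-D1* was split between H2-D1-202 (54.5 to 58.1%) and the much shorter H2-D1-201 (39.1 to 42.9%). *Cd74* was divided between its coding transcripts Cd74-201 (69.5 to 72.5%) and Cd74-202 (26.6 to 29.7%), and *B2m* had 1 transcript. *H2-Aa* and *H2-DMa* were mostly assigned to coding transcripts, with H2-Aa-201 at 88.3 to 92.6%, H2-Aa-204 at 6.40 to 10.3% and H2-DMa-205 at 81.2 to 90.6%. *Tap1* was spread over the coding Tap1-206 (38.8 to 47.1%) and Tap1-201 (11.2 to 24.5%) and the retained-intron Tap1-203 (15.4 to 19.1%) and Tap1-205 (7.42 to 10.5%). For *Ciita*, the coding Ciita-201 held 54.7 to 86.0%, Ciita-202 2.66 to 12.3% and Ciita-207 2.16 to 12.1%. *H2-Ab1* was carried mainly by H2-Ab1-201 (65.8 to 74.3%), and the share of its other coding transcript H2-Ab1-208 was 30.1 ± 9.67% in male WT and 16.7 ± 6.25% in male KO mice (SD, n = 4), while its TPM was 7.67 and 7.42 (exact permutation p = 0.743). In females that share was 15.6 ± 10.97% in WT and 19.97 ± 6.92% in KO. Reads of *H2-K1* and *H2-D1* can be assigned to each other's locus or to other class I genes, since 22.8% and 26.7% of their 31-base words occur in another gene, against at most 1.41% for any other member.

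**Figure D1:**
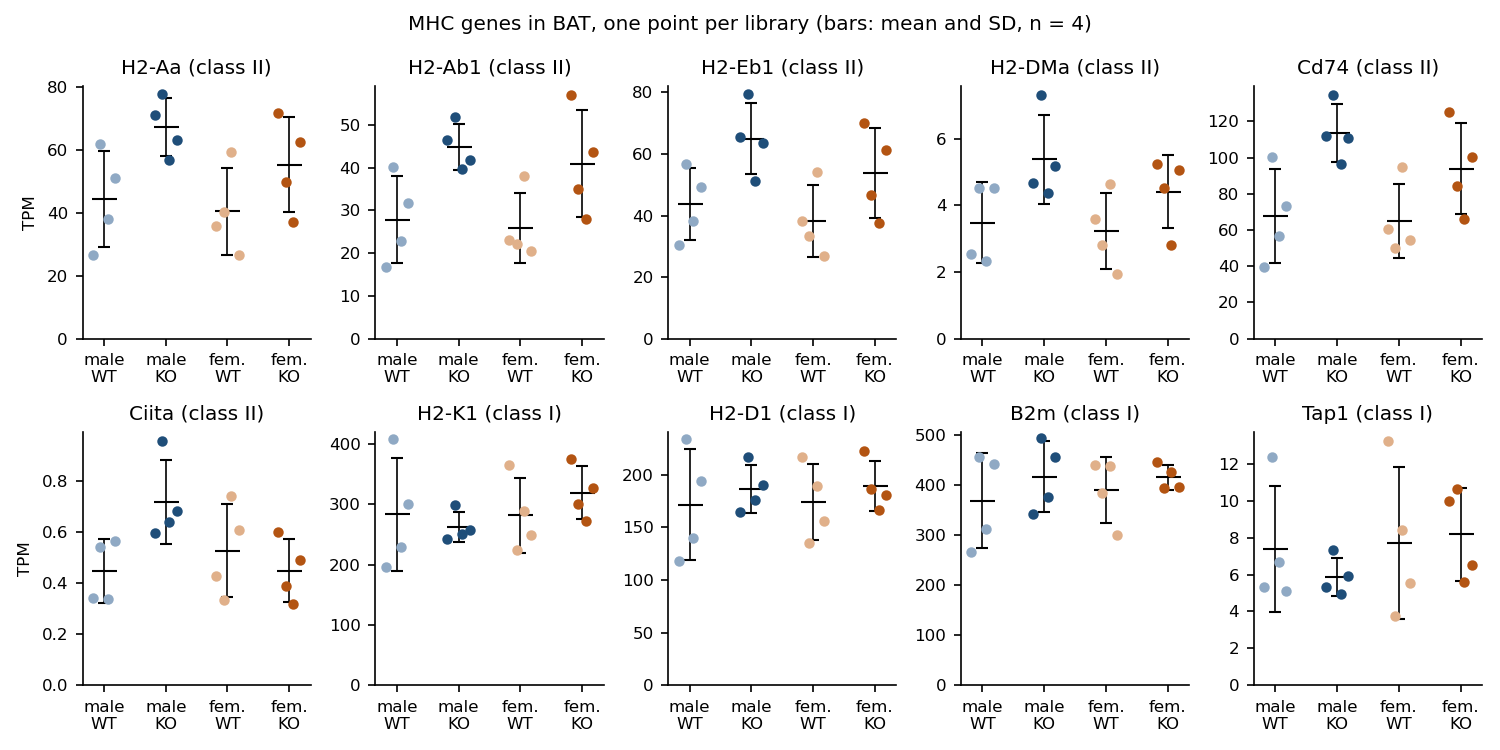
TPM of each member (y axis, from 0) in each library, with 1 point per mouse, by sex and genotype (fem., female). Bars are the mean and SD of 4 mice. In males, 3 of 4 KO mice lie above every WT mouse for the 5 abundant class II genes, and among the class I genes this is so for 2 of 4 KO mice at *B2m* and for none at the other 3 genes.

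Class II genes lay higher in KO than in WT males, by 1.504- to 1.76-fold for the 5 members that were tested, but none passed the adjusted threshold. *H2-Aa*, the alpha chain of the I-A molecule, was at 26.7, 61.6, 37.9 and 51.1 TPM in the 4 male WT mice and at 71.1, 77.6, 56.7 and 63.2 TPM in the 4 male KO mice. Its partner, the beta chain *H2-Ab1*, was at 16.7, 40.1, 22.7 and 31.7 TPM in WT and 46.6, 51.8, 39.7 and 41.7 TPM in KO. For both genes 3 of 4 KO mice were above all WT mice, with WT 2 the highest WT mouse and KO 3 the KO mouse below it.

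*H2-Eb1*, the beta chain of the I-E molecule, showed the same order, with 30.3, 56.8, 38.1 and 49.2 TPM in WT and 65.5, 79.5, 51.3 and 63.5 TPM in KO. *Cd74* was at 39.6, 101, 56.9 and 73.4 TPM in WT and 112, 135, 96.4 and 111 TPM in KO. Here too only KO 3 fell within the WT range. *H2-DMa* was lower throughout, at 2.55, 4.52, 2.33 and 4.54 TPM in WT and 4.67, 7.32, 4.36 and 5.18 TPM in KO, and again KO 3 was the KO mouse that overlapped the WT group.

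On the log2(TPM + 0.5) scale, tested with limma and Benjamini-Hochberg adjustment over all 12176 genes, the log2 fold change was 0.81 ± 0.26 (SE, n = 4 per group, adjusted p = 0.203) for *Cd74* and 0.75 ± 0.24 (adjusted p = 0.205) for *H2-Ab1*. It was 0.65 ± 0.24 (adjusted p = 0.227) for *H2-Aa*, 0.59 ± 0.21 (adjusted p = 0.218) for *H2-Eb1* and 0.59 ± 0.24 (adjusted p = 0.242) for *H2-DMa*. Of the 12176 genes, 0.00821% (1 gene) passed the adjusted threshold of 0.05. All 5 class II genes had an unadjusted p under 0.05 in the direction of KO, as did 17.7% of all genes tested. Because TPM are shares of a fixed sum, the median change over all genes tested, 0.16 in log2, is the level to read these values against. With median-of-ratios scaling, which centres that median near 0, the class II median went from 0.62 to 0.46 over its 6 genes, and in both scalings all 6 were above 0, as were 79.9% of the genes tested before rescaling. A log2 fold change of 0.5 or more was seen in 5 members, all of class II, and in 8.68% of the genes tested. The mitochondrial share of TPM was 43.9 to 59.8% in male WT and 44.0 to 51.5% in male KO mice, and without male WT 1, whose share was highest, the class II median was 0.46. The median of all genes without male WT 1 is not given here. Rescaling without mitochondrial transcripts moved the median of all genes tested in males from 0.16 to 0.07. The 5 tested class II genes stayed above 0 under that rescaling. The part of the mitochondrial share in their values was not tested further.

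*Ciita*, the master switch of class II transcription, lay under the level for the genome-wide test. It was at 0.342, 0.541, 0.338 and 0.567 TPM in male WT and 0.595, 0.959, 0.639 and 0.682 TPM in male KO mice, so the groups did not overlap. A log2 fold change of 0.36 gave an exact two-sided permutation p = 0.0286, the smallest that 4 against 4 mice allow. Every KO mouse above every WT mouse was found for 9.55% of the genes tested in males. Where genes of any level were admitted to the limma test, its adjusted p was 0.357 or more.

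The class I genes lay near or below the median of all genes in males. *H2-K1* was at 196, 409, 229 and 301 TPM in WT and 243, 299, 250.1 and 258 TPM in KO, with a log2 fold change of -0.06 ± 0.21 (limma, adjusted p = 0.892). *H2-D1* ranged from 118 to 235 TPM in WT and from 165 to 217 TPM in KO (0.17 ± 0.21, limma, adjusted p = 0.673). *B2m* ranged from 265 to 456 TPM in WT and from 342 to 493 TPM in KO (0.20 ± 0.20, limma, adjusted p = 0.597). For all 3 genes the WT mice spread more widely than the KO mice, and WT 1 was the lowest and WT 2 the highest WT mouse. *Tap1* was at 5.36, 12.4, 6.71 and 5.09 TPM in WT and 5.32, 7.32, 4.97 and 5.94 TPM in KO (-0.23 ± 0.26, limma, adjusted p = 0.626). The signs of *H2-K1*, *H2-D1* and *Tap1* turned under other settings and carry no direction. Summing *H2-K1* and *H2-D1* with the class I genes *H2-K2* and H2-Q gave 547 ± 161 TPM in WT and 562 ± 66.9 TPM in KO (SD, n = 4, exact permutation p = 0.771). Reads assigned to another of these genes stay in this sum, but the TPM they give still depends on the length of the transcript.

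**Figure D2:**
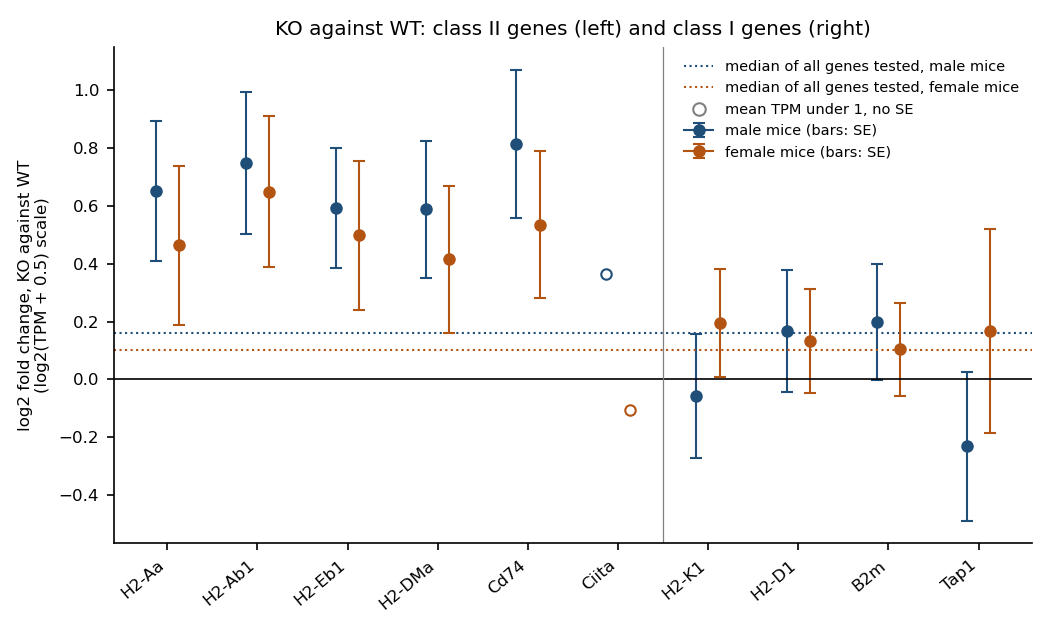
Log2 fold change of KO against WT (y axis, log2(TPM + 0.5) scale) for each member in male and female mice. Bars are the limma SE, open circles mark *Ciita*, which was under the tested level, and dotted lines are the medians of all genes tested (0.16 and 0.10). The class II genes other than *Ciita* lie above both lines in both sexes, and the class I points lie between -0.23 and 0.20.

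In female mice the 5 class II members that were tested lay higher in KO, by 1.33- to 1.57-fold, with wide overlap between genotypes, and *Ciita* was at 0.93-fold. *H2-Ab1* was at 22.95, 22.03, 38.0 and 20.4 TPM in female WT and 57.1, 34.9, 27.9 and 43.7 TPM in female KO mice. *Cd74* was at 60.4, 50.1, 95.1 and 54.4 TPM in WT and 125, 84.0, 66.0 and 100.2 TPM in KO, and *H2-Aa* at 35.7, 40.2, 59.1 and 26.4 TPM in WT and 71.6, 49.6, 37.1 and 62.4 TPM in KO. In each of these, KO 1 and KO 4 were above all WT mice, KO 3 was the lowest KO mouse, and WT 3 stood above the other WT mice. *H2-Eb1* ranged from 26.7 to 54.3 TPM in WT and from 37.5 to 69.9 TPM in KO. *H2-DMa* ranged from 1.94 to 4.63 TPM in WT and from 2.82 to 5.25 TPM in KO.

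The log2 fold change in females was 0.65 ± 0.26 (limma, adjusted p = 0.268) for *H2-Ab1*, 0.54 ± 0.25 (adjusted p = 0.315) for *Cd74* and 0.50 ± 0.26 (adjusted p = 0.343) for *H2-Eb1*. It was 0.46 ± 0.28 (limma, adjusted p = 0.393) for *H2-Aa* and 0.42 ± 0.26 (adjusted p = 0.404) for *H2-DMa*. Of the 12141 genes tested in females, 0% passed the adjusted threshold in limma, while 17.1% had an unadjusted p under 0.05. *H2-Ab1* was the 1 member with an unadjusted p under 0.05, which 11.6% of genes had in the direction of KO. Of the 10 members 9 were above 0, as were 62.7% of the genes tested, and *H2-Ab1* and *Cd74* reached 0.5, as did 12.3%. *Ciita* was at 0.427, 0.332, 0.740 and 0.608 TPM in WT and 0.599, 0.390, 0.318 and 0.489 TPM in KO, with a log2 fold change of -0.11 (exact permutation p = 0.514). The group means of its transcripts lay in opposite directions, at levels near 0. The coding Ciita-201 was at 0.277 ± 0.16 TPM in female WT and 0.376 ± 0.058 TPM in female KO mice (SD, n = 4, exact permutation p = 0.314), which made up 54.7% and 86.0% of the gene. The retained-intron Ciita-207 (0.0654 against 0.00841 TPM) and the non-coding Ciita-202 (0.0617 against 0.0136 TPM) were lower in KO, each with an exact permutation p = 0.0286. That is the smallest p that 4 against 4 mice allow, and it was not adjusted for the number of transcripts compared. At such levels counting error cannot be judged without depth, so these directions are not established.

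The class I genes of females lay close to the median of all genes, 0.10, with log2 fold changes of 0.10 to 0.19 and adjusted p of 0.571 to 0.811 in limma. *H2-K1* was at 366, 225, 289 and 249 TPM in WT and 376, 301, 273 and 328 TPM in KO. *Tap1* had the widest spread, with 13.3, 3.77, 8.41 and 5.54 TPM in WT and 9.99, 10.7, 5.58 and 6.53 TPM in KO. Without female WT 2 and WT 4, which stood apart in their composition, the median log2 fold change of the class II genes was 0.21 in place of 0.48. That of the class I genes was -0.09 in place of 0.15, so both classes moved down. The median of all genes in that fit is not given here, so these values cannot be read against it.

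Library names begin with a number that the labels do not explain, and it is spread unevenly over the groups. Within prefix 10, with 1 female WT and 1 female KO mouse, the median class II log2 fold change was 0.93, and within prefix 8b, with 3 WT and 1 KO mouse, it was -0.01. The female difference therefore did not hold within both prefixes, and the other 2 female KO libraries have no WT partner. In males, prefix 9 held 2 WT and 3 KO mice and gave a class II median of 0.62, against 0.62 over all 8 males. For class I, the values were 0.03 and 0.09 in females and 0.13 in males.

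The size of the KO difference was not shown to differ between the sexes for any member. The difference of the log2 fold changes, female minus male, was -0.09 to -0.28 for the 5 class II genes (SE 0.35 to 0.39, limma, adjusted p of 0.773 to 0.935). For the class I genes it was -0.09 to 0.40, with adjusted p of 0.723 to 0.973. No gene of the 12210 tested (0%) passed the adjusted threshold, and 14.2% had an unadjusted p under 0.05, none of them a member. For *Ciita* the difference was -0.47 and was not tested.

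Averaged over both sexes, the class II genes came closest to the threshold. The mean KO effect was 0.70 ± 0.19 (limma, adjusted p = 0.0552) for *H2-Ab1* and 0.67 ± 0.19 (adjusted p = 0.0614) for *Cd74*. It was 0.55 ± 0.17 (limma, adjusted p = 0.0851) for *H2-Eb1*, 0.56 ± 0.19 (adjusted p = 0.107) for *H2-Aa* and 0.50 ± 0.18 (adjusted p = 0.122) for *H2-DMa*. Here 2.93% of all 12210 genes passed, 2.58% in the direction of KO, and no member did. All 5 had an unadjusted p under 0.05, as did 24% of all genes. For the 4 class I genes the mean effect was -0.03 to 0.15, with adjusted p of 0.483 to 0.943.

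This outcome turned on single libraries. Without male WT 2, *Cd74* (0.78, adjusted p = 0.0204), *H2-Ab1* (0.80, adjusted p = 0.0206), *H2-Eb1* (0.61, adjusted p = 0.0451) and *H2-Aa* (0.65, adjusted p = 0.0493) passed in limma. Without female KO 3, 3 of these passed, all but *H2-Aa*, and without female WT 3, *H2-Ab1* and *Cd74* passed. Scaling each library to its named nuclear transcripts, an alternative chosen after seeing the data, also let *H2-Ab1* (0.57, adjusted p = 0.0445) and *Cd74* (0.55, adjusted p = 0.0474) pass. The share of all genes that passed in these fits is not given here, so the calls cannot be read against it. With the 3 libraries of unusual composition left out, the class II median was 0.32 in place of 0.55, against 0.03 for all genes, and no member passed. Among the male WT mice, male WT 2 held the highest level for 9 of the 14 genes of interferon gamma signalling with a mean of at least 1 TPM, and for 45.6% of all genes. Within their own groups, male KO 2 did so for 11 of the 14 (44.8% of all genes) and female WT 1 for 10 (49.8%). In female KO mice no library did so for more than 5. The chemokine *Cxcl10*, 1 of the 14, was at 6.18 TPM in male WT 2 and 0.840 to 1.39 TPM in the other male WT mice. Outside that list, the immunoproteasome subunit *Psmb8* was at 36.2 against 6.37 to 10.97 TPM. The part of these levels in the male values was not tested.

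No difference was detectable between WT mice of the 2 sexes. Female WT against male WT differed by -0.20 to 0.11 on the log2 scale over the 10 members, and limma gave an adjusted p of 0.9997 or more for each of the 9 tested. Of the 12042 genes tested, 0.0664% passed and 3.42% had an unadjusted p under 0.05, none of them a member.

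A further measure is the level of class II relative to class I within a library. The scaling of the library cancels in it, apart from the effect of the 0.5 added to each TPM. In males the mean log2 of *H2-Aa*, *H2-Ab1*, *H2-Eb1*, *H2-DMa* and *Cd74* minus that of the 4 class I genes was -2.13, -2.04, -2.04 and -1.80 in WT mice and -1.18, -1.30, -1.46 and -1.44 in KO mice. The genotypes did not overlap, and the WT and KO means were -2.0 ± 0.14 and -1.34 ± 0.13 (SD, n = 4). Male WT 2, high for both classes, was in the middle of the WT group on this measure. In females the values were -2.62, -1.93, -1.74 and -2.33 in WT and -1.61, -1.96, -2.09 and -1.52 in KO. There the groups overlapped, with means of -2.16 ± 0.39 and -1.79 ± 0.27. For a single pair of genes, *Cd74* amounted to 14.9 to 22.04% of the *B2m* TPM in male WT and 24.3 to 32.7% in male KO mice, and to 13.1 to 21.7% in female WT and 15.5 to 28.1% in female KO mice. No test was made on these measures, which combine the members.

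**Figure D3:**
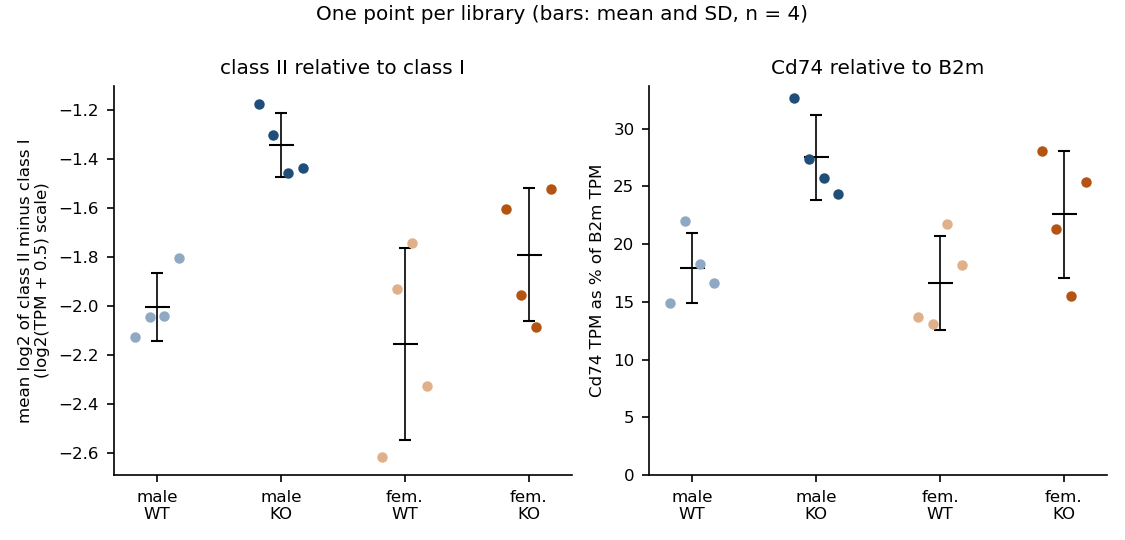
Left, mean log2 of 5 class II genes minus mean log2 of 4 class I genes (y axis, log2(TPM + 0.5) scale). Right, *Cd74* TPM as a percentage of *B2m* TPM. Points are libraries and bars the mean and SD of 4 mice. In males the WT and KO points do not overlap on either measure, and in females they do (fem., female).

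The class II members other than *Ciita* varied together from mouse to mouse. Over the 16 libraries, Pearson's r between the 5 abundant class II genes was 0.895 to 0.99, with a median of 0.95 over 10 pairs (Spearman's rho, median 0.95). Class I pairs had r of 0.42 to 0.91 (median 0.76), the weakest being *B2m* with *Tap1*, and pairs across the pathways without *Ciita* 0.21 to 0.75 (median 0.60). With group means removed, the median r was 0.93 for the class II pairs, 0.78 for the class I pairs (0.48 to 0.98) and 0.71 for pairs across the pathways (0.42 to 0.83). The class I pairs and the pairs across the pathways then covered much the same range, and *Cd74* with *H2-D1* (0.83) lay above *B2m* with *Tap1* (0.48). *Ciita* followed the class II genes with r of 0.65 to 0.74. These points share the scale of their library, which raises every r, and in bulk tissue more cells of a type cannot be told apart from more RNA per cell.

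**Figure D4:**
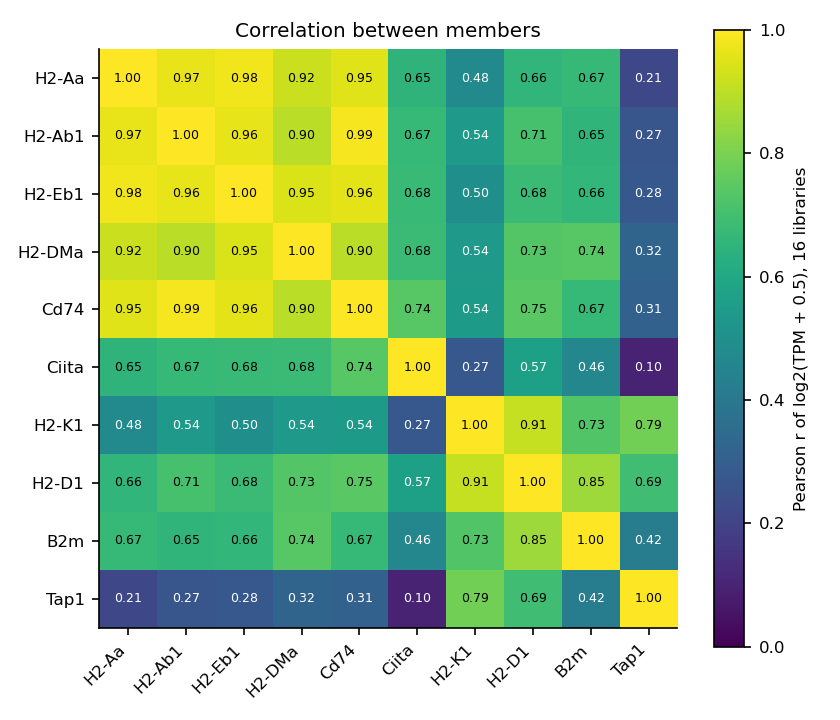
Pearson's r of log2(TPM + 0.5) over 16 libraries for each pair of members (both axes, class II genes first). The block of 5 class II genes is at 0.895 or above, and *Tap1* is nearest to *H2-K1* at 0.79.

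Outside the members, the genes whose log2 values were most like the class II mean over the 16 libraries included *Itm2c*, a membrane protein of the BRICHOS family (r = 0.95), the TNF receptor *Tnfrsf1b* (0.93), the Fc receptor gamma chain *Fcer1g* (0.93) and the complement component *C1qb* (0.93). The others of the first 10 were *Dctn5*, *Tmsb10*, *Prelid1*, *Prpf31*, *Arhgdib* and *S100a6*, with r of 0.91 to 0.93. Closest to the class I mean were *Cacfd1* (r = 0.92), *Ocel1*, *Idnk*, *Sap18* and *Ttc3* (0.89 to 0.91).

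The rest of the class II pathway gave a mixed picture. Of 20 further genes, 11 were abundant enough to test. In males 10 of the 11 were above 0, as were 79.9% of all genes, with a median of 0.19, close to the 0.16 of all genes. *Ctss*, the protease cathepsin S that trims the invariant chain, had the largest difference. It was at 2.86, 5.22, 4.13 and 6.25 TPM in male WT and 9.31, 16.8, 11.6 and 16.7 TPM in male KO mice, without overlap (log2 fold change 1.47 ± 0.25, limma, adjusted p = 0.123). In females it was at 2.93 to 10.2 TPM in WT and 3.97 to 5.25 TPM in KO (0.01 ± 0.32, adjusted p = 0.9898 in limma), and the difference between the sexes was -1.46 ± 0.43 (limma, adjusted p = 0.217). *H2-DMb1*, the partner chain of *H2-DMa*, was at 2.25, 4.57, 2.18 and 4.09 TPM in male WT and 5.03, 5.03, 4.59 and 5.64 TPM in male KO mice (0.62 ± 0.22, limma, adjusted p = 0.219).

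Of the factors that bind the class II promoter, the RFX subunit *Rfxap* had a log2 fold change of 0.42 in males (limma, adjusted p = 0.255) and 0.47 in females (adjusted p = 0.323), and the NF-Y subunit *Nfya* 0.27 in males (adjusted p = 0.448) and 0.39 in females (adjusted p = 0.247). *Rfx5* had 0.14 in males (limma, adjusted p = 0.673) and -0.35 in females (adjusted p = 0.369), with a female minus male difference of -0.50 (adjusted p = 0.422). *Rfxank* and *Nfyb* lay at 0.06 and 0.03 in males and 0.30 and 0.34 in females, and *Nfyc* at -0.03 and -0.02. In females 9 of the 11 pathway genes were above 0, as were 62.7% of all genes, with a median of 0.30 beside 0.10 for all genes. *Ifi30*, the lysosomal thiol reductase, had 0.50 in females (limma, adjusted p = 0.269). None of the 11 passed the adjusted threshold in either sex, while 3 in males and 2 in females had an unadjusted p under 0.05, as did 18.7% and 17.1% of all genes. The costimulatory ligands *Cd80* and *Cd86* were under 1 TPM in every library.

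Among all genes tested, 79.9% in males and 62.7% in females were above 0. The class I pathway beyond the members, 28 genes with 26 tested, had a median of 0.05 in males, where 16 were above 0 and 10 below. In females its median was 0.20, and 20 were above 0. None passed the adjusted threshold, and *Cd1d1* alone in males (-0.28, limma, adjusted p = 0.215) and *H2-K2*, *H2-T23*, *Psmb10* and *Mr1* in females had an unadjusted p under 0.05. *Mr1*, which presents vitamin metabolites, was the 1 of these 4 that was lower in female KO mice (-0.63 ± 0.20, limma, adjusted p = 0.231), and its female minus male difference was -0.87 ± 0.23 (adjusted p = 0.216). *Nlrc5*, the class I counterpart of CIITA, had -0.02 in males and 0.17 in females.

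Genes of interferon gamma signalling had no common direction in males. Of 16, 14 were tested, and in males 7 were above and 7 below 0 with a median of 0.003. Among all genes tested in males, 79.9% were above 0, with a median of 0.16. In females 8 of the 14 were above 0 with a median of 0.10, beside 62.7% and 0.10 for all genes. *Ifng* itself was at most 0.149 TPM in any library. *Irf8*, a transcription factor of macrophages and dendritic cells, was at 0.706 to 1.29 TPM in male WT and 1.82 to 2.05 TPM in male KO mice without overlap (0.72 ± 0.17, limma, adjusted p = 0.163). *Irf2* (0.56), *Jak2* (0.32) and *Ifngr1* (0.28) also had an unadjusted p under 0.05 in males, and the chemokine *Cxcl9* (0.43) in females.

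Markers of macrophages lay higher along with class II in males. The summed TPM of 12 macrophage markers was 48.0 to 93.4 in male WT and 121 to 178 in male KO mice, without overlap. All 11 tested markers were above 0 in males, as were 79.9% of all genes, and their median log2 fold change was 0.98. Of these, 9 had an unadjusted p under 0.05 and 7 did not overlap between genotypes, as was the case for 18.7% and, in the direction of KO, 9.55% of all genes. *Trem2*, a lipid receptor of macrophages, had 1.46 ± 0.23 (limma, adjusted p = 0.123), *Lyz2* 1.12 ± 0.23 (adjusted p = 0.143) and the complement gene *C1qc* 1.11 ± 0.24 (adjusted p = 0.146). In females the macrophage sum was 58.4 to 123 TPM in WT and 78.4 to 116 TPM in KO. The female median over 10 tested markers was 0.19, and 1 (*Cd68*) had an unadjusted p under 0.05, as did 17.1% of all genes. Over both sexes, 2.93% of all genes passed in limma, 2.58% in the direction of KO. Among them were *Cd68* (0.77, adjusted p = 0.0301), *C1qa* (0.65, adjusted p = 0.0424), *C1qb* (0.73, adjusted p = 0.0427) and the general leukocyte gene *Laptm5* (0.67, adjusted p = 0.0328). Each of these 4 lost the call in some of the 26 alternatives, in which it passed 12 to 17 times. The part of macrophage RNA in the class II values was not tested.

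**Figure D5:**
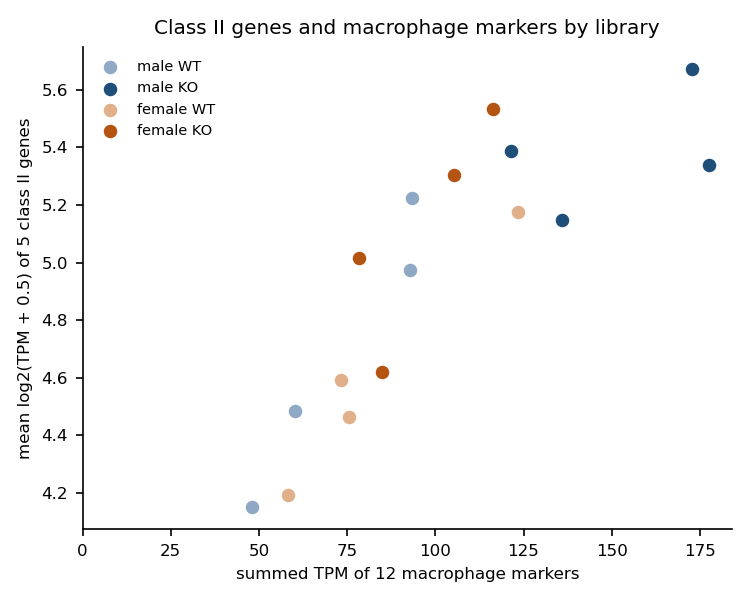
Mean log2(TPM + 0.5) of *H2-Aa*, *H2-Ab1*, *H2-Eb1*, *H2-DMa* and *Cd74* (y axis) beside the summed TPM of 12 macrophage markers (x axis) in each of the 16 libraries, coloured by group. All male KO libraries lie at 121 TPM or more on the x axis, and the female KO libraries at 78.4 to 116 TPM.

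Markers of dendritic cells, B cells, T cells and NK cells were examined in the same way. Of 10 dendritic cell markers, 5 (*Flt3*, *Xcr1*, *Cd209a*, *Batf3* and *Ccr7*) were under 1 TPM in every library, and the list summed to 7.74 to 13.8 TPM in male WT, 12.1 to 13.97 in male KO, 9.47 to 14.1 in female WT and 13.1 to 29.8 TPM in female KO mice. *Clec10a*, a lectin of type 2 dendritic cells and macrophages, had 0.78 ± 0.19 in males (limma, adjusted p = 0.166) and 0.59 ± 0.25 in females (adjusted p = 0.285). It passed over both sexes (0.68, limma, adjusted p = 0.0413), as did 2.93% of all genes, though in 9 of 26 alternatives only. *Irf4*, a transcription factor of dendritic and B cells that is also found in adipocytes, lay the other way in males, at 0.962 to 3.20 TPM in WT and 0.722 to 0.973 TPM in KO (-0.73 ± 0.27, limma, adjusted p = 0.227). In females it was at 1.60 to 4.52 TPM in WT and 2.17 to 11.8 TPM in KO (0.83 ± 0.49, limma, adjusted p = 0.395), and the female minus male difference was 1.56 ± 0.60 (adjusted p = 0.275). The third dendritic marker tested, *Zbtb46*, had 0.11 in males and 0.38 in females. Among 6 B cell markers, *Ms4a1*, *Pax5* and *Cr2* were under 1 TPM throughout. *Ighm*, the IgM heavy chain, made up most of that list's 6.70 to 99.5 TPM, at 12.0 to 38.4 TPM in male WT, 18.2 to 97.1 TPM in male KO, 5.00 to 32.4 TPM in female WT and 5.21 to 21.5 TPM in female KO mice. Its log2 fold change was 1.30 ± 0.51 in males (limma, adjusted p = 0.236) and -0.69 ± 0.57 in females (adjusted p = 0.519), with a difference between the sexes of -1.99 ± 0.83 (adjusted p = 0.295). The median sum of the B cell list was 21.6 TPM in male WT and 63.8 TPM in male KO mice, beside 76.5 and 154 TPM for the macrophage list. The 8 T and NK cell markers summed to 1.45 to 5.83 TPM over all libraries, with *Cd3d*, *Cd3e*, *Cd3g*, *Cd4*, *Cd8a* and *Ncr1* under 1 TPM throughout, and the male WT 2 library held the highest sum.

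Of all genes tested, 79.9% in males and 62.7% in females had a log2 fold change above 0. All 6 endothelial markers did so in both sexes, or 4 of them in males with median-of-ratios scaling. In females all 6 had an unadjusted p under 0.05 (17.1% of all genes) and 5 did not overlap between genotypes, as did 4.89% of all genes. Their sum was 141 to 192 TPM in female WT and 216 to 423 TPM in female KO mice, and *Cdh5*, the vascular cadherin, had 0.85 ± 0.23 (limma, adjusted p = 0.231). In males 3 had an unadjusted p under 0.05, as did 18.7% of all genes. The male sums overlapped, at 144 to 268 TPM in WT and 225 to 258 TPM in KO. For none of the 6 was the KO difference shown to differ between the sexes, with a lowest adjusted p of 0.344 for *Tek* in limma. Over both sexes *Cdh5* passed (0.65, limma, adjusted p = 0.0358), as did 2.93% of all genes. *Cdh5* also passed in 13 of 26 alternatives. The summed fibroblast markers did not overlap in males, at 104 to 187 TPM in WT and 217 to 224 TPM in KO. Of the 6 genes in that sum, only the collagens *Col1a1* (1.30, limma, adjusted p = 0.123) and *Col3a1* (0.97, adjusted p = 0.146) did not overlap, as was the case for 9.55% of all genes, and the sums overlapped in females. The general leukocyte markers summed to 12.6 to 31.4 TPM in male WT and 25.0 to 37.2 TPM in male KO, and to 15.3 to 24.8 TPM in female WT and 18.2 to 25.2 TPM in female KO mice. Brown adipocyte markers summed to 13097 to 17416 TPM in male WT and 14149 to 15060 TPM in male KO, and to 9496 to 13715 TPM in female WT and 11200 to 16609 TPM in female KO mice. Of these 9 genes 3 were above 0 in males (median -0.05) and 7 in females (median 0.23), beside 79.9% and 62.7% of all genes. The part of these cell types in the class II values was not tested.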

How the data were processed

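Groups were taken from the labels, and the 4 libraries of a group were treated as separate mice. The members, gene lists and tests were chosen with earlier results of these data known. Libraries were stranded, polyA-selected and sequenced single-end, and whether strand was used in quantification is not given in the sources used here. The authors quantified reads with kallisto 0.46.2 (GRCm39, per the submitters' processing notes) and deposited TPM values per transcript, which keep no depth, so intervals and detection floors were not computed. The authors' DESeq2 test, which needs counts, was replaced by limma 3.58.1 in R 4.3.3 (lmFit, and eBayes with trend) on log2(TPM + 0.5), over genes with a mean of at least 1 TPM in the libraries compared, with Benjamini-Hochberg adjustment over all genes and a threshold of 0.05. On this scale the difference of a gene with low TPM is understated. Of 137438 transcripts, 135051 were matched without version number to GENCODE mouse release 21 and 2387 were not. Transcripts were summed to 49130 genes, or 49066 with 1 kept per symbol, and promoter coordinates are on RefSeq's GRCm38.p6, another build than that of the quantification. For values outside the limma test, exact permutation tests (two-sided, 4 against 4) were used. All 10 members were named, with up to 3 genes of smallest p per list, defining markers near 0, *Gdf15*, the genes most like each class, and transcripts holding 10% or more of a member. *Psmb8*, *Cxcl10*, *Nlrc5*, *Ifngr1*, *H2-T23*, *C1qa*, *Nfyc* and *Ucp1* were named after their values were seen, and 1 marker gene is not reported here. On data simulated for the male comparison over 12013 genes with 200 changed, limma called 146 of the changed genes at a log2 change of 1 and 189 at 2, with 9 and 8 others. Pseudocounts of 1 and 0.1, minimum means of 0 and 5 TPM, other scalings, no trend, a prefix covariate, a replicate block, 1 fit over all libraries and leaving out each library were tried.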

Additional observations from a re-analysis of the deposited data

Results flagged for a closer look

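*H2-Ab1* in female WT mice was the 1 value set in which a library lay far from the others of its group. Female WT 3 was at 38.0 TPM and the other female WT mice at 20.4 to 22.95 TPM, and this gap took up 0.854 of the group's range, beyond the 95% limit of Dixon's test for 4 samples. Over 40 such tests (10 members in 4 groups), chance gives about 1 flag in 20. The same mouse was the highest female WT mouse for *H2-Aa*, *H2-Eb1*, *H2-DMa* and *Cd74*, and had the highest summed macrophage markers of the females, at 123 TPM. Without it the female log2 fold change of *H2-Ab1* was 0.85 in place of 0.65.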

How the results depend on the processing

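No member passed the adjusted threshold within either sex under any of 20 alternatives per sex, and the class II genes other than *Ciita* kept a log2 fold change above 0 in all of them and in the 26 for the mean effect, the values within a prefix not counted. Leaving out 1 library moved the number of members past the threshold in the mean effect between 0 and 4, and scaling to matched nuclear transcripts gave 2. These counts are given without the share of all genes that passed in the same fits. The female class II median was 0.93 within prefix 10 and -0.0086 within prefix 8b. The class I signs were not stable, and the causes were not tested. Under the prefix covariate *H2-K1* (0.033) and *Tap1* (0.035) turned in males and *Tap1* (-0.16) in females. Under median-of-ratios scaling *H2-D1* turned in males (-0.0056), *B2m* in females (-0.0024) and *H2-K1* in the mean effect (-0.070). Under nuclear scaling *H2-D1* (-0.022) and *B2m* (-0.050) turned in females and *H2-K1* in the mean effect (-0.061), where removing mitochondrial transcripts gave -0.0058. Without the libraries of unusual composition, *H2-K1* (-0.035), *H2-D1* (-0.11), *B2m* (-0.082) and *Tap1* (-0.40) turned in females, and *H2-K1* (-0.13), *H2-D1* (-0.051) and *B2m* (-0.015) in the mean effect. With 1 library left out, *H2-K1* ranged from -0.22 to 0.14 and *Tap1* from -0.37 to 0.034 in males, *B2m* from -0.017 to 0.17 and *Tap1* from -0.10 to 0.46 in females, and *H2-K1* from -0.010 to 0.17 and *Tap1* from -0.17 to 0.11 in the mean effect.

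With the replicate number as a block, 0 members passed in every comparison. The male class II median is 0.62 with or without the block, since each number occurs once per genotype and the block then cannot move it. The labels do not say that the numbers pair the mice. Deviations of same-numbered WT and KO mice correlated at -0.09 to 0.35 in males and -0.11 to 0.15 in females. Some samples correlated best with their own number and others did not. So few correlations cannot decide whether the mice were paired. Without depth, low members such as *Ciita* cannot be judged for counting error.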
